A study of Mus musculus with 3 samples.

Results

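Genes of Schwann cells and of myelin were followed in sorted mouse leptomeningeal cells, from the pia and arachnoid, the inner coverings of the brain. The members were 33 genes chosen by name, of 46983 gene rows in the count table, and each symbol stood on 1 row. They comprised 8 genes of peripheral myelin or its Schwann cells, and 14 genes listed as shared by Schwann cells and oligodendrocytes. Pmp22, a protein of peripheral myelin that many other cells also make, was placed in this shared class. The rest were 4 genes known mainly from oligodendrocytes and 7 genes of immature or non-myelinating Schwann cells. All 3 libraries belonged to 1 group, the pia-enriched fraction of vehicle-treated mice, made by microdissection, dissociation and flow cytometric sorting. The genotype, strain, age and sex of the mice, what the vehicle was given for, the gate of the sort and whether animals were pooled are not given in the sources used here. Nothing says that the libraries came from separate animals, so the spread between these 3 libraries may be technical. A p-value measures how far a gene's spread exceeds the usual spread of genes of like abundance in the same 3 libraries. A shift shared by many genes is part of that usual spread.

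Myelin is a stack of glial membrane wrapped around an axon. In peripheral nerve it is made by Schwann cells, which are derived from the neural crest, and in brain and spinal cord by oligodendrocytes. The transcription factor Sox10 is needed in both lineages, whereas Egr2 (also called Krox20) drives the peripheral myelin programme and is also an immediate early gene in other cells. The pia and arachnoid carry fine nerves and border on the roots of the cranial nerves, where central and peripheral myelin meet.

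Reads assigned to genes numbered 21002860 for library 1, 28704952 for library 2 and 25338616 for library 3. Levels are given as CPM, read counts relative to a library size scaled by edgeR's TMM method. Where genes are compared with each other, levels are given as TPM. For TPM, counts were divided by exon length and scaled to each library's own total, without the TMM factor. A count of 0 allows up to 3 counts, which is 0.152, 0.101 and 0.116 CPM in libraries 1, 2 and 3; these floors and the intervals below cover counting error only. Chi-square per degree of freedom between the counts of a pair of libraries was at least 47.2, so no column was a copy of another. Library 1 stood apart in its base composition and in its low macrophage, lymphocyte and choroid plexus genes, for which values are given below, and library 3 stood apart in the members themselves.

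The members took 0.316% of gene counts in library 1 (exact 95% interval 0.3132% to 0.318%), 0.312% in library 2 (0.31% to 0.3141%) and 0.506% in library 3 (0.5033% to 0.5089%). The mean was 0.378% ± 0.111 (SD, n = 3). Pmp22, Mbp and Cnp alone held 75.6%, 74.1% and 71.3% of the members' counts in libraries 1, 2 and 3. Of the 33 members, 6 averaged at least 100 CPM, 15 lay between 10 and 100 CPM, 8 between 1 and 10 CPM, and 4 below 1 CPM. The 4 lowest, Pmp2, Mog, Opalin and Ermn, did not pass the filter on low counts, and the other 29 did. Libraries 1 and 2 were alike in the members' share, and library 3 lay above both.

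**Figure D1:**
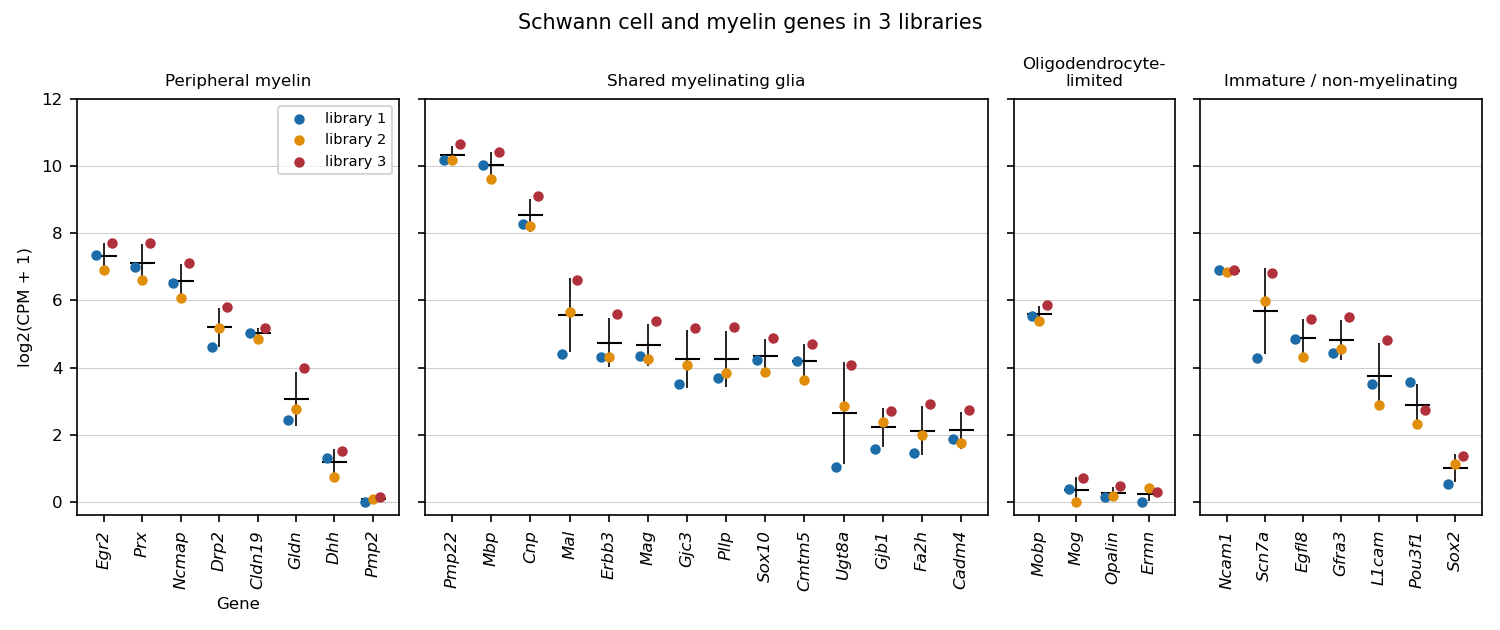
Level of each of the 33 members as log2(CPM + 1) in libraries 1, 2 and 3 (points), with the mean (bar) and SD (whiskers) over the 3 libraries, by class. The red points of library 3 are the highest in 27 of the 29 members past the filter, and Mog, Opalin, Ermn and Pmp2 lie near 0.

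The transcriptional regulators were read first. Sox10 (ENSMUSG00000033006.9) lies on chromosome 15, from 79154908 to 79165240 in GRCm38. Its level was 17.9 CPM in library 1, 13.7 in library 2 and 28.7 in library 3. Egr2 was at 161, 120 and 208 CPM. Both were highest in library 3 and lowest in library 2. Pou3f1 (Oct6), a POU factor of the promyelinating stage, was also lowest in library 2 but highest in library 1, with 11 CPM there against 3.97 and 5.67 CPM in libraries 2 and 3. Sox2, which marks immature Schwann cells and represses myelination, was barely counted, at 0.455, 1.18 and 1.58 CPM. Per length, Egr2 (147 ± 40.3 TPM, SD, n = 3) lay above Sox10 (20.3 ± 8.16 TPM), Pou3f1 (5.3 ± 2.23 TPM) and Sox2 (1.65 ± 0.941 TPM).

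Among the peripheral myelin genes, Prx, Egr2, Ncmap, Drp2 and Cldn19 were well counted in every library. Prx (periaxin; ENSMUSG00000053198.13) lies on chromosome 7, from 27499324 to 27520214, and anchors the Schwann cell's cortical cytoplasm. It reached 127 CPM in library 1, 97 in library 2 and 209 in library 3. Drp2, which binds periaxin in a complex with dystroglycan, was at 23.6, 35.3 and 54.6 CPM. Ncmap, a small membrane protein of non-compact myelin, was at 90.1, 66.5 and 138 CPM. The range of libraries 1 and 2 lay below library 3 for all 3 of these genes. Cldn19, a claudin of Schwann cell tight junctions, was the steadiest of the class, at 32, 28 and 34.9 CPM.

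Signals and nodal proteins of the same class were lower. Gldn (gliomedin), which Schwann cell microvilli present at the node of Ranvier, was at 4.45, 5.85 and 14.8 CPM in libraries 1, 2 and 3. Dhh (desert hedgehog), the Schwann cell ligand that organises the perineurium, was at 1.47, 0.672 and 1.85 CPM. Counts of Dhh were 29, 20 and 48, and 25.2% of its exon length was shared with an antisense gene, so this low level is uncertain.

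Pmp2, the fatty acid binding protein of peripheral myelin, held 0, 2 and 3 counts, at or below the floor in each library. Its level cannot be read from this table. In GENCODE M21, Pmp2 (chromosome 3, 10179851 to 10183929) shares 86.9% of its exon length with Gm37389, a protein-coding gene on the same strand. Gm37389 held 0 counts in all 3 libraries. In its default mode the counting program HTSeq sets aside a read that lies in both genes as ambiguous. The mode used is not given in the sources used here, and a loss of Pmp2 reads in this way was not tested. Exon overlaps also touched Pllp (54.2% with an antisense gene) and Egfl8 (34.9% with a gene on the same strand). Dhh, besides its antisense overlap, shared 12.4% with Rhebl1, a protein-coding gene on the same strand. No other member was touched by more than 8.57%.

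The class listed as shared held most of the signal, at 2972 ± 791 summed CPM (SD, n = 3). Of this sum Pmp22 averaged 1309 CPM. Pmp22, a tetraspan protein of compact peripheral myelin that many other cells also make, was at 1169, 1155 and 1603 CPM in libraries 1, 2 and 3. Mbp, the myelin basic protein that zips the cytoplasmic faces of the membrane together, was at 1051, 782 and 1375 CPM. Cnp, an enzyme of non-compact myelin, was at 312, 294 and 549 CPM. Per length Pmp22 stood apart at 1720 ± 400 TPM (SD, n = 3), percentile 99.8 of 24953 genes with a count, and Mbp and Cnp (388 ± 109 and 328 ± 130 TPM) overlapped each other. Mag, a sialic acid binding adhesion protein of the inner myelin membrane, was far lower at 19.2, 18.3 and 41 CPM.

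The proteolipids of the MARVEL family, small proteins with 4 membrane spans, differed in how evenly they were counted. Mal was at 20.3, 49.3 and 97.2 CPM in libraries 1, 2 and 3, 4.8-fold higher in library 3 than in library 1. Pllp (plasmolipin) was at 11.9, 13.3 and 35.8 CPM, with 3.01-fold between the same libraries. Cmtm5 was at 17.5, 11.5 and 25 CPM, with 1.43-fold. Library 1 was thus the lowest for Mal and Pllp, but not for Cmtm5.

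Enzymes of the myelin galactolipids were low. Ugt8a, which makes galactosylceramide, was at 1.06, 6.25 and 15.8 CPM in libraries 1, 2 and 3, the widest range of any member (3.03 on the log2(CPM + 1) scale). Fa2h, which adds the 2-hydroxyl group to the fatty acid of these lipids, was at 1.77, 2.96 and 6.52 CPM. Both were lowest in library 1 and highest in library 3. Of 10 further genes of sphingolipid synthesis and breakdown, all passed the filter and 0 were called variable between libraries. A call is a Benjamini-Hochberg adjusted p below 0.05 in edgeR's goodness of fit. The share called over all 14409 genes tested was 0.437%. An unadjusted p below 0.05 was held by 7.04% of all genes and by 0 of these 10. The highest were Smpd1 (564 ± 180 CPM, SD, n = 3), Degs1 (389 ± 76 CPM) and Cers2 (336 ± 24.9 CPM), which act in all cells. The lowest was Gal3st1, the sulfotransferase that turns galactosylceramide into sulfatide, at 0.859, 1.08 and 1.85 CPM.

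Junction and receptor genes of myelinating glia followed. Gjc3 (connexin 29), found at the innermost layer of Schwann cell myelin, was at 10.4, 15.9 and 35.5 CPM in libraries 1, 2 and 3. Gjb1 (connexin 32), which links the layers of one cell's myelin and is mutated in a form of Charcot-Marie-Tooth disease, was at 1.97, 4.2 and 5.55 CPM. Cadm4, the glial adhesion partner of axonal Cadm proteins, was at 2.68, 2.39 and 5.71 CPM. Erbb3, the neuregulin receptor subunit, was at 18.8, 19.1 and 47.4 CPM. In each of these genes library 3 was the highest.

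Genes of immature and non-myelinating Schwann cells were present beside those of myelin. Ncam1, a neural adhesion molecule of non-myelinating Schwann cells and of other cells, was nearly constant at 119, 113 and 119 CPM in libraries 1, 2 and 3. L1cam, its partner in axon bundling, was at 10.5, 6.32 and 27.5 CPM. Scn7a, a sodium-sensing channel of glia, was at 18.5, 61.9 and 111 CPM. Library 3 was the highest for L1cam and Scn7a, whereas Ncam1 did not separate the libraries. Gfra3, the receptor for artemin, was at 20.5, 22.4 and 44.3 CPM. Egfl8, a secreted protein with EGF repeats, was at 27.6, 19 and 43 CPM.

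The 4 genes known mainly from oligodendrocytes did not behave alike. Mobp, a cytoplasmic myelin protein of the central nervous system, was counted 894, 1210 and 1492 times, or 45.2, 40.7 and 57.5 CPM, in libraries 1, 2 and 3. Mog, on the outer face of central myelin, had 6, 0 and 17 counts. Opalin, an oligodendrocyte membrane protein, had 2, 4 and 10 counts. Ermn (ermin), a cytoskeletal protein of oligodendrocytes, had 0, 10 and 6 counts. Mobp thus held nearly all counts of this class, and the other 3 genes stayed at or below 0.656 CPM in every library.

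Summed CPM of the oligodendrocyte-limited genes was 10.4%, 11.6% and 8.88% of that of the peripheral genes in libraries 1, 2 and 3 (10.3% ± 1.38, SD, n = 3). Without Mobp, an alternative added after seeing the data, it was 0.0918%, 0.133% and 0.192%. Per length the ratio with Mobp was 5.57%, 6.41% and 5.01%. Egr2, also an immediate early gene of other cells, gave 161, 120 and 208 CPM of the peripheral sums of 440, 353 and 662 CPM. These peripheral sums leave out Pmp22, which was placed in the shared class. The ratio was not computed without Egr2 or with Pmp22 added. The defining genes of the oligodendrocyte lineage were looked up on a separate list of 16 genes, of which 5 passed the filter. Of these 5, 0 were called variable, against 0.437% of all genes, and 2 had an unadjusted p below 0.05, against 7.04%. Of the 16, 8 averaged over 1 CPM and 10 had a count in every library. Among the lowest were Olig2 with 2, 0 and 6 counts, Hapln2 with 1, 0 and 1, Sox1 with 0, 0 and 1, and Klk6 with 0, 0 and 3. The 3 highest on that list were Aspa (29.4, 73.9 and 101 CPM), Bcas1 (30.5, 33.2 and 59.8 CPM) and Gpr17, a receptor of differentiating precursors, which was at 2.27, 0.302 and 19.5 CPM. Gpr17 and Olig1 (17, 0 and 100 counts) were highest in library 3 and nearly or wholly missing from library 2. Neither gene passed the filter, so the test above did not cover them and its count of calls leaves them out. Olig1, Olig2, Hapln2 and Klk6 were picked out after their values were seen.

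The stretches upstream of the 4 oligodendrocyte-limited genes are printed because their levels split, a choice made after the values were seen, with Prx and Cnp for comparison. They are from RefSeq on GRCm38.p6, written 5′ to 3′ on the gene's strand, and run from position -250 to position -41 before an annotated start of the gene, 210 bases each. Capitals mark ACAAAG or ACAATG, core letters that SOX factors bind, or their reverse complements CTTTGT and CATTGT.
Mobp (chr9:120149492-120149701, plus strand): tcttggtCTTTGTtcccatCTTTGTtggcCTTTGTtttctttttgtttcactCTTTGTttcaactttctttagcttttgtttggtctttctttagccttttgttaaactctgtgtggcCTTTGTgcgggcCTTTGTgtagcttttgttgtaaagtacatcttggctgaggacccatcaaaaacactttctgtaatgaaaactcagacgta
Mog (chr17:37023439-37023648, minus strand): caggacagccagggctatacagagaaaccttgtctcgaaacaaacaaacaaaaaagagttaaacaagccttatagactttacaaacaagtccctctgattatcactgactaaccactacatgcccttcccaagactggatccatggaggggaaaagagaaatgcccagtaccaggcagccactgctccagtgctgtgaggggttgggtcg
Opalin (chr19:41077154-41077363, minus strand): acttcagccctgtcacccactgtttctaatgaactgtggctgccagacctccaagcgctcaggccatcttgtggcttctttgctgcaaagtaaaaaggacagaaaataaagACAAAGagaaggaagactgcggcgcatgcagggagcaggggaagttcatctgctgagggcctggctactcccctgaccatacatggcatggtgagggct
Ermn (chr2:58052905-58053114, minus strand): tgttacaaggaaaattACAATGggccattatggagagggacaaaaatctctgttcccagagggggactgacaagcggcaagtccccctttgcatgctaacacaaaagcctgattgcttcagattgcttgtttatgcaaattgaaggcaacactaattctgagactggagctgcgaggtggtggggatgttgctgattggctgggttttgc
Prx (chr7:27499074-27499283, plus strand): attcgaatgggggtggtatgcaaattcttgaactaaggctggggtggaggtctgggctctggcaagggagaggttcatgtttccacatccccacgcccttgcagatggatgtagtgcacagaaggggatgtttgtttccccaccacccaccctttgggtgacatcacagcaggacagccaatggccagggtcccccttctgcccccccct
Cnp (chr11:100574689-100574898, plus strand): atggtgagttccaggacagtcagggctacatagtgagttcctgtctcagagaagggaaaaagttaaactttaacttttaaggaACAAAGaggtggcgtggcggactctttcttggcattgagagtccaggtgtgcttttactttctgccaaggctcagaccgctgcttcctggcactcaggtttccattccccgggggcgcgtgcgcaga

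The Mobp stretch held 6 matches, all CTTTGT, whose first bases lay between position -243 and position -120. Opalin and Ermn held 1 match each, at position -139 and position -234, and Cnp held 1 at position -167. Mog and Prx held none. Over the full 250 bases before each of 32851 annotated starts, 25.2% held at least 1 match on either strand. At 6 or more, a cutoff equal to the count of Mobp itself, 1 start remained, that of Mobp. Of 33 members, 24 were found in the RefSeq table, with 40 starts, and 11 of these starts in 9 genes held a match. An EGR motif, GCGTGGGCG or GCGGGGGCG on either strand, was found at 3.06% of all starts and at 1 member start, that of Scn7a. A match describes the letters only, and binding at these stretches was not measured.

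**Figure D2:**
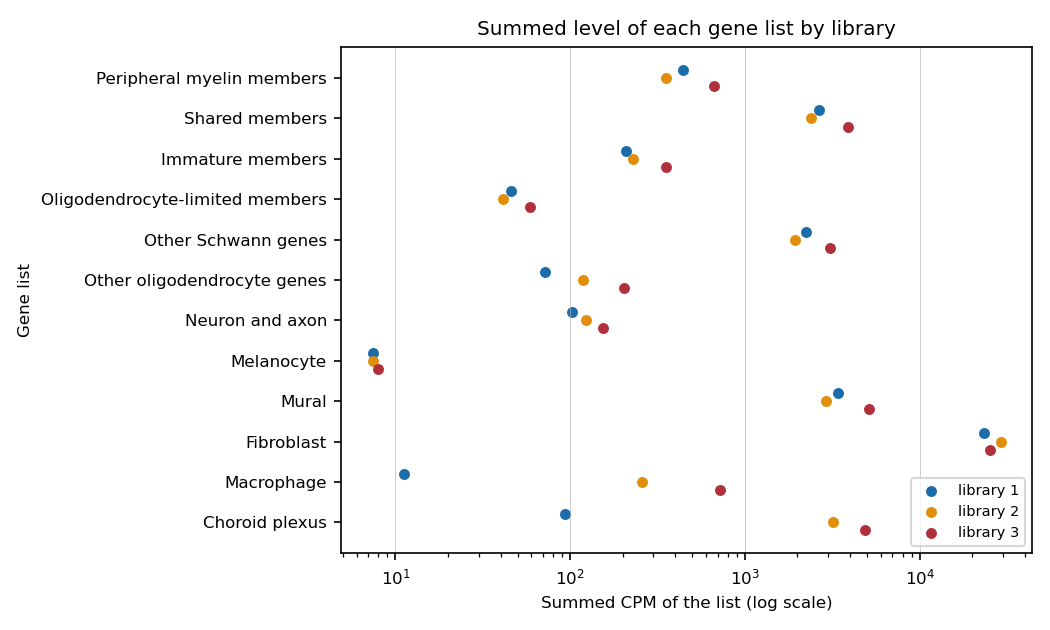
Summed CPM of the 4 member classes and of 8 other gene lists in libraries 1, 2 and 3 (points), on a log scale. All 4 member classes are highest in library 3, as is every other list except fibroblast, which is highest in library 2. The melanocyte list differs little, between 7.43 and 7.9 CPM.

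Schwann cell genes outside the gene set were read beside it. Their list was chosen with earlier results of these data known, so it is no independent check of the label. Of 20 further genes of Schwann cells, 19 passed the filter and all 20 had a count in every library. Of these 19, 12 were highest in library 3 (27.6% of all genes were), 5 in library 1 and 2 in library 2. Their median difference between libraries 3 and 2 was 0.55 on the log2(CPM + 1) scale. It was 0.95 for the members and 0.00 for all genes. Cd9, a tetraspanin that many other cells also make, was at 739, 578 and 846 CPM in libraries 1, 2 and 3 (721 ± 135, SD, n = 3). The lowest was Foxd3, a neural crest factor, with 7, 4 and 33 counts. Cdh19, a cadherin of Schwann cell precursors and mature Schwann cells, was the only gene of this list called variable (0.437% of all 14409 genes tested were called). It was at 3.54, 23.9 and 58.7 CPM (adjusted p = 0.00158, edgeR goodness of fit, Benjamini-Hochberg). Its GC content was 37.7%, and its fold between libraries 3 and 1 was 16.6 as counted and 5.42 with trends in GC content and exon length removed. By the same test the call held with the trends removed (adjusted p = 0.00293) and without library 2 (adjusted p = 0.00344). It also held with a common dispersion (adjusted p = 0.0065) and under the other scalings and filters. The call was lost without library 1 (adjusted p = 0.295) and without library 3 (adjusted p = 0.524).

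Ligands and axonal signals were looked up on a list of 19 genes, of which 13 passed the filter. By edgeR's goodness of fit 0 were called variable, against 0.437% of all genes, and 0 had an unadjusted p below 0.05, against 7.04%. Nrg1, the axonal neuregulin that sets myelin thickness through Erbb3, had 0, 10 and 0 counts in libraries 1, 2 and 3, and Nrg3 had 0 in each. Artn, the ligand of Gfra3, had 0, 4 and 0 counts. The highest were Bace1 (120 ± 21.9 CPM, SD, n = 3), Gas1 (99.1 ± 28.6 CPM) and Adam17 (84.7 ± 19 CPM), a pair of neuregulin-cleaving proteases and a hedgehog co-receptor. Of 8 genes raised in Schwann cells after nerve injury, 5 passed the filter and 0 were called variable (0 at an unadjusted p below 0.05). Id2 (1814 ± 653 CPM), Jun (98.8 ± 14.1 CPM) and Runx2 (37 ± 7.55 CPM), which other cells also make, were the highest, and Shh, a marker of repair Schwann cells, had 0 counts in each library. Nrg1 and Artn were picked out after their values were seen.

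All 12 cholesterol synthesis genes passed the filter, a pathway on which myelin growth depends. By edgeR's goodness of fit 0 of the 12 were called variable, against 0.437% of all genes, and 0 had an unadjusted p below 0.05, against 7.04%. The highest were Srebf2 (172 ± 29.3 CPM, SD, n = 3), Hmgcs1 (153 ± 10.6 CPM) and Cyp51 (95.2 ± 37 CPM), and the lowest was Idi1 (3.79 ± 1.36 CPM). In 12 of 12 library 3 lay above library 2, as it did for 49.5% of all genes tested.

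Most neighbours in the order of the members per length were not resolved. Above percentile 90 of all genes with a count lay 7 members, namely Pmp22, Mbp, Cnp, Egr2, Ncmap, Prx and Mal, and 27 lay above percentile 50. Of 32 pairs of neighbours in the order, 2 had ranges that did not overlap: Pmp22 above Mbp, and Cnp (328 ± 130 TPM) above Egr2 (147 ± 40.3 TPM). In 4 pairs the gap between means exceeded the larger SD, these 2 and Ncmap above Prx and Drp2 above Gjb1. Mobp (21.5 ± 4.44 TPM, SD, n = 3) stood between Cldn19 (22.8 ± 2.71 TPM) and Sox10 (20.3 ± 8.16 TPM), and did not differ from either beyond their spread.

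Library 3 was the highest for 27 of the 29 members past the filter, against 27.6% of all 14409 genes. The exceptions were Pou3f1 and Ncam1, which were highest in library 1, Ncam1 by a margin below its SD. All 7 peripheral and all 14 shared members past the filter were highest in library 3, as were Mobp and 5 of the 7 immature members. The median difference between libraries 3 and 2 was 0.95 on the log2(CPM + 1) scale for the members and 0.00 for all genes. It was 0.79 for the peripheral and 0.83 for the immature class. The widest was that of L1cam at 1.96, and the narrowest that of Ncam1 at 0.08.

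**Figure D3:**
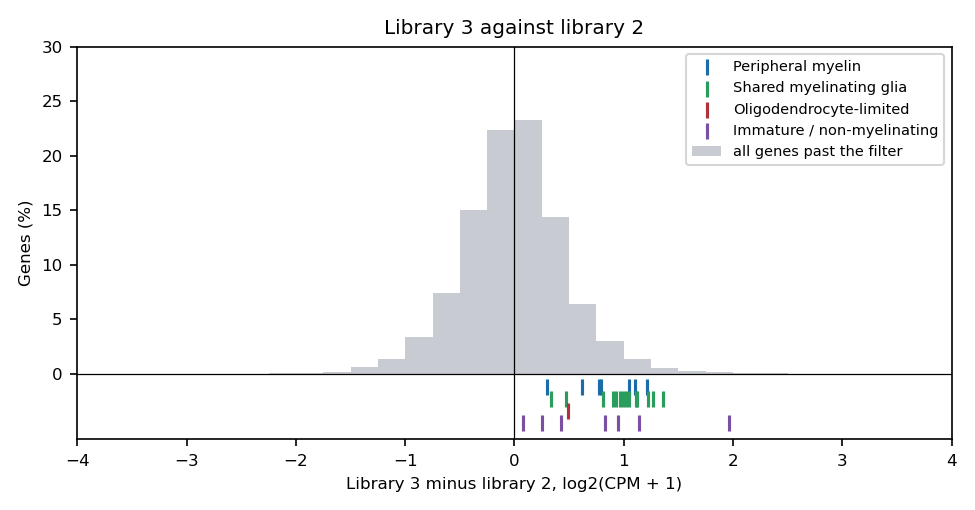
Difference between library 3 and library 2 in log2(CPM + 1) for all 14409 genes past the filter (grey bars, percent of genes per 0.25 bin) and for 29 members (ticks by class). All 29 ticks lie above 0, where all genes are centred.

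The same count was run under other settings, chosen after seeing the data. It was 27 with DESeq2 size factors, 28 with plain totals and 27 with trends in GC content and exon length removed, where the share of all genes was 30.5%. Without library 1, 29 of 29 members were higher in library 3 than in library 2, against 49.5% of all genes. Without library 2, 27 of 29 were higher in library 3 than in library 1, against 50.9% of all genes.

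Variation between libraries was tested gene by gene with edgeR's goodness of fit, adjusted over all 14409 genes by the Benjamini-Hochberg method. At an adjusted p of 0.05, 0 of 29 members were called, against 0.437% of all genes. Unadjusted p-values lay below 0.05 for 6 members, against 7.04% of all genes: Ugt8a, Scn7a, Mal, L1cam, Gjc3 and Pllp. The lowest was that of Ugt8a (adjusted p = 0.0726, edgeR), followed by Scn7a (0.109) and Mal (0.254). Each of these 3 genes was lowest in library 1 and highest in library 3. A common dispersion called Ugt8a (adjusted p = 0.0153, edgeR), and a fit without the trends in GC content and exon length called Mal (adjusted p = 0.00701, edgeR). In counts simulated for these 14409 genes, the test recovered 19 of 200 genes changed 4-fold in 1 library and 92 of 200 changed 8-fold. Among members, 14.9-fold for Ugt8a was the only difference between libraries 3 and 1 above 8-fold, so most member differences were of a size the test rarely calls.

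With library 1 left out, 0 members were called by edgeR and 18 of 29 had an unadjusted p below 0.05, against 5.61% of all genes. With the trends removed, 12 of 29 had one, against 6.43%. The members that differed least were Ncam1 (unadjusted p = 0.989 over 3 libraries, edgeR goodness of fit) and Cldn19 (0.9).

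Library 1 differed from the others by base composition, and some members moved with it. Across 14375 genes, the difference between library 1 and the mean of libraries 2 and 3 had a Spearman coefficient of 0.62 with GC content, and across the 29 members one of 0.48; genes are not independent replicates. The members past the filter below 45% GC were Ugt8a (39.9%), Scn7a (40.2%) and Gjc3 (44.4%). Their differences were -2.42, -2.10 and -1.13 on the log2(CPM + 1) scale, and -1.43, -0.72 and -0.47 after the trends were removed. The fold between libraries 3 and 1 was 14.9 for Ugt8a before and 6.05 after removal, and 5.98 and 2.5 for Scn7a. Mal, with 49.8% GC, kept its fold, at 4.8 before and 4.9 after.

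**Figure D4:**
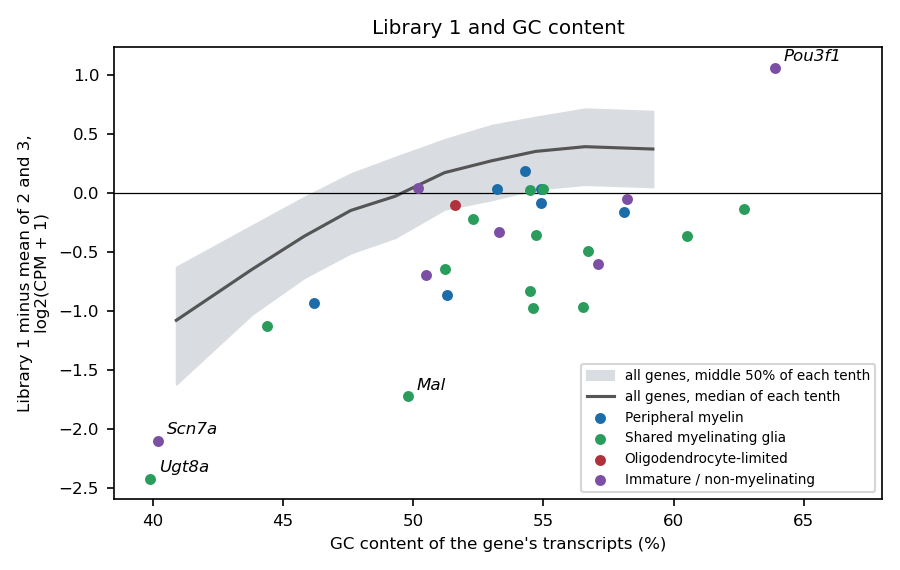
Library 1 minus the mean of libraries 2 and 3 in log2(CPM + 1), against the GC content of each gene's transcripts, for 29 members (points by class) and for all genes in 10 equal bins of GC content (line, median; band, middle 50%). Ugt8a and Scn7a lie at the low end of GC content, Mal lies far below the line, and Pou3f1 has both the highest GC content and the highest value of the members.

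Along GC content the medians of all genes ran from -1.08 in the lowest of the 10 bins to 0.37 in the highest. With the trends removed, the median difference of library 1 from the others was -0.58 for the members and 0.04 for all genes. The members were lowest in library 1 in 12 of 29 cases as counted, against 40.4% of all genes, and in 20 of 29 with the trends removed, against 34.8%. Their lowest library was library 2 in the other 17 as counted, against 32.3% of all genes. Between libraries 1 and 2 the order of the members therefore depended on this correction, and the place of library 3 did not.

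Markers of other cells moved between the same libraries. Mural genes, 7 on their list and all past the filter, summed to 3394, 2923 and 5121 CPM in libraries 1, 2 and 3, and 6 of 7 were highest in library 3. Values for 3 further lists, those of macrophages, choroid plexus and lymphocytes, differed more. Macrophage genes summed to 11.2, 258 and 725 CPM over 8 genes, choroid plexus genes to 93.3, 3212 and 4901 CPM over 6, and lymphocyte genes to 2.63, 41.3 and 47.2 CPM over 5. These 3 lists were lowest in library 1 and highest in library 3. Of their genes past the filter, 6 of 6, 3 of 5 and 2 of 2 were called variable by edgeR, against 0.437% of all genes. The rest of their genes were not tested. As counted, the members' share was nearly the same in libraries 1 and 2 and highest in library 3. With the trends removed, 20 of 29 members were lowest in library 1. Fibroblast genes summed to 23467, 29100 and 25292 CPM over 6 genes. Endothelial genes were at 90.2, 64.5 and 76.2 CPM over 6, and perineurial genes at 97.2, 107 and 124 CPM over 4. The part of any of these cells in the members' differences was not tested. In bulk RNA, fewer cells of a type and less RNA per cell cannot be told apart.

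Neural and neural crest sources other than Schwann cells were read in the same way. Neuron and axon genes summed to 102, 124 and 154 CPM over 12 genes, of which 7 passed the filter. The highest were Snap25 (56.2 ± 12.5 CPM, SD, n = 3), Calca (34.4 ± 21.7 CPM) and Tubb3 (13.3 ± 1.51 CPM), and the lowest was Isl1 with 0, 0 and 2 counts. Calca, the gene of the sensory neuropeptide CGRP, was at 16.1, 28.7 and 58.3 CPM. Of the 7 genes past the filter, 3 were highest in library 1, 2 in library 2 and 2 in library 3. Melanocyte genes, which share Sox10 with Schwann cells, summed to 7.43, 7.46 and 7.9 CPM over 6 genes, and Tyr and Slc45a2 had 0 counts in each library. Genes of astrocytes and satellite glia summed to 1609, 1108 and 882 CPM over 8, of which Glul and Gjb6 made up most, at 580 ± 269 and 552 ± 130 CPM. The sum was highest in library 1, as Glul and Gjb6 were, whereas 6 of the 8 genes were highest in library 3. The part of these cells in the members' differences was likewise not tested.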

How the data were processed

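The authors deposited raw counts per gene for 3 libraries from SMART-Seq amplified RNA. Reads were counted with HTSeq 0.5.3 on mm10, and DESeq2 1.22.1 is also named, per the submitters' processing notes; the values are whole and unnormalized. The aligner, the annotation release and the strand setting are not given in the sources used here. Rows for reads of no gene (45.6%, 39.1% and 39.6% of libraries 1, 2 and 3) stayed out of library sizes and tests.

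In edgeR 4.0.16 (R 4.3.3), filterByExpr with its minimum count set to 10 left 14409 genes, on which TMM factors were computed. With 1 group no quasi-likelihood contrast exists, so variation between libraries was tested with edgeR's goodness of fit at the trended dispersion, with Benjamini-Hochberg adjustment, checked on simulated data. Log2 differences used a pseudocount of 1, which understates the change of low genes. TPM used the union of exons in GENCODE M21 (GRCm38), in which 98.9% of gene rows and all 33 members were found. GC content was taken over each gene's transcripts, and trends were removed by loess with a span of 0.5. Alternatives were DESeq2 1.42.0 size factors, plain totals, other filters, a common dispersion, removal of the trends, and leaving out each library.

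Every member was to be named, and of other lists the 3 highest, the lowest and any gene called variable; genes outside this rule are said to be so. Some genes that the rule would name are not reported here. Markers of other cells were named by their sums. The members and lists were chosen with earlier results of these data known, from general knowledge and not from a reference data set.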

Additional observations from a re-analysis of the deposited data

Results flagged for a closer look

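Reads that HTSeq assigned to no gene are not part of the values above, and 4 of the 5 kinds lay far over the floor of 3 counts; reads of low alignment quality were listed at 0. Of the reads in a library, 16.5% on average mapped to several places, 14.7% were left unaligned, 8.89% lay outside annotated genes and 1.35% were ambiguous between genes. The ambiguous share was 1.39%, 1.35% and 1.31% in libraries 1, 2 and 3; how much of it belongs to members with overlapping exons, such as Pmp2, was not tested.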

How the results depend on the processing

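The mean levels of 33 members under other scalings, and of 29 with trends removed, moved by less than their SD. Without library 3, 11 of 33 fell by over 1.5 times, among them Ugt8a from 7.72 to 3.66, L1cam from 14.8 to 8.41, Gldn from 8.37 to 5.15 and Mal from 55.6 to 34.8 CPM. Without library 1 or library 2, 1 member, Ermn, moved by over 1.5 times. The count of members called variable (0) was 1 with a common dispersion (Ugt8a) and 1 with the GC content and length trends removed (Mal), and 0 under the other 7 alternatives. Over all genes the count called (63) was 138 with no filter, 186 with a filter on a mean of 10 counts, 99 with the trends removed, and from 12 to 28 with any single replicate left out, a fit on fewer samples. The ratio of oligodendrocyte-limited to peripheral genes (10.3%) was 5.66% per kilobase, 0.878% by the median over members and 0.139% without Mobp. Per kilobase the class sums were 22.5 in place of 48.5 for the oligodendrocyte-limited and 180 in place of 263 for the immature genes. The members' share (0.378%) was 0.222% of all counts, unassigned reads included. No paired analysis was possible because there was a single group. Mog, Opalin and Ermn had under 20 counts in every library, which limits the precision of their levels.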
